A study of Homo sapiens with 6 samples.

Results

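7SK RNA and the mRNAs of its protein partners were followed through an RNA immunoprecipitation sequencing (RIP-seq) experiment on ORC1, which belongs to the origin recognition complex, the protein assembly that sits where DNA replication starts. The 8 genes are RN7SK, which encodes 7SK RNA, and LARP7, MEPCE, HEXIM1, HEXIM2, CDK9, CCNT1 and CCNT2, which encode the proteins that bind 7SK or make up the kinase it holds. They were taken by gene symbol from a table of 23013 genes, and all 8 passed the filter that left 16513 genes for testing, a mean normalised count of at least 10.

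The study asked which nuclear RNAs come down with ORC1. Nuclei came from untreated, asynchronously growing HCT116 cells, an established human colorectal cancer line, and all 6 libraries share this line, state and treatment. The 3 input libraries were made from nuclear lysate with no antibody, and the 3 ORC1 IP libraries from RNA precipitated out of that lysate with an anti-ORC1 antibody. The labels number inputs and IPs as RIP replicates 1, 2 and 3 without saying whether these were separate cultures, so the spread between libraries may be partly technical. No library from a control antibody was among the files, so the background of the precipitation could not be subtracted for any gene. The paper states that RNA was not detectable in its IgG control.

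7SK is a short, abundant nuclear RNA transcribed by RNA polymerase III. Together with MEPCE and LARP7 it forms a particle in which HEXIM1 or HEXIM2 holds P-TEFb, the kinase CDK9 with cyclin T1 or T2, in an inactive state. P-TEFb that is released from this particle phosphorylates RNA polymerase II and the factors that pause it, which lets transcription elongate. The table measures 7SK itself but only the mRNAs of the proteins, so it holds no measure of the protein complex.

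Libraries held between 13703033 and 36008733 reads on genes. Of the epithelial markers, 7 of 8 passed the filter and VIL1 did not, and 0 of the 7 passed the test between ORC1 IP and input (limma, Benjamini-Hochberg). The blood markers PTPRC, CD3E, HBB and LYZ were not among the genes of the table used here. Of the fibroblast markers only COL1A1 was, at 161 to 298 normalised counts in inputs and 432 to 787 in IPs. ORC1 IP 2 held 6.0% of its reads on genes of the mitochondrial genome, against 0.257% and 0.617% in the other IPs and 1.49% to 3.28% in inputs.

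Counts per gene hold no position within an RNA, and the part that sequence has in the values was not tested. Of the partner mRNAs, LARP7 passed the test between ORC1 IP and input and CDK9 did not, and the difference between them was not tested. Shown are the ends of 7SK, where its partners bind, and a coding stretch each of LARP7 and CDK9. All are from GENCODE v44 (GRCh38), since the deposited values were counted on hg19 without coordinates and were matched by Ensembl gene identifier. RN7SK (ENSG00000202198) lies at chr6:52995620-52995950 on the plus strand as 1 exon of 331 nt with no intron. Its first 100 nt, at chr6:52995620-52995719, hold GATC, the motif bound by HEXIM proteins, starting at nt 13, 42 and 64, shown in capitals. At least 1 GATC on the sense strand was found in the first 100 nt of 19.6% of 16026 tested transcripts, and at least 3 in 0.218%.
7SK 5′ stretch: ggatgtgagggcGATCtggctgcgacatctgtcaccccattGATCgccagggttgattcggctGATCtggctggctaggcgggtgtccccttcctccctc
The last 60 nt of 7SK, at chr6:52995891-52995950, end in the T-rich tail (U in the RNA) that LARP7 binds, with TTT in capitals. At least 2 TTT, overlapping ones included, were found in the last 60 nt of 56.2% of 16062 transcripts.
7SK 3′ stretch: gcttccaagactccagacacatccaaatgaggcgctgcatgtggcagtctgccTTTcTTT
The third stretch is the 120 nt of the LARP7 coding sequence with most GAA triplets, 13 in all and in capitals, at chr4:112647048-112647238 on the plus strand, in exons 6 and 7 of 13 with the intron between them left out.
LARP7 coding stretch: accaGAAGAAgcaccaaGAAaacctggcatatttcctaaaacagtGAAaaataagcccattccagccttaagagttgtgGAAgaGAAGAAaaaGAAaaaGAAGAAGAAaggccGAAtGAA
The matching 120 nt of CDK9, at chr9:127786188-127786767 on the plus strand in exons 1 and 2 of 7, hold 6.
CDK9 coding stretch: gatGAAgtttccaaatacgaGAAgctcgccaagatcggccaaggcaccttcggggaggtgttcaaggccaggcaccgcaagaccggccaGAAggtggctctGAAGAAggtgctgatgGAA
Of 16013 tested transcripts of at least this length, 81.3% held at least 6 GAA in their richest 120 nt and 3.25% held at least 13. These shares come from a search of the whole longest transcript, whereas the LARP7 and CDK9 stretches were sought in the coding sequence alone. GAA triplets were counted on the sense strand in any reading frame.

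7SK RNA had the highest normalised count of the 8 RNAs in every library but ORC1 IP 3, where CCNT1 and 7SK were about level, and its values in ORC1 IPs lay below those in inputs, whereas LARP7 mRNA was enriched. RN7SK had 116897, 336588 and 238159 normalised counts (read counts divided by a size factor per library) in inputs 1, 2 and 3. In ORC1 IPs 1, 2 and 3 it had 20122, 78121 and 3986. The groups did not overlap, but on a log scale the IPs spread over a wider range than the inputs, with IP 2 nearest to the inputs and IP 3 farthest. Mean values were 230548 ± 110043 in input and 34076 ± 38988 in IP (SD, n = 3). The log2 fold change of ORC1 IP over input was -3.52 ± 1.37 (SE), an 11.4-fold lower geometric mean, and the adjusted p was 0.158 (limma on log2(normalised count + 1), Benjamini-Hochberg over 16513 genes), so 7SK did not pass the threshold of 0.05. Of 12 alternative fits that kept all libraries, 1 passed, and the adjusted p reached 0.433 with edgeR and the replicate block. The 1 was DESeq2 on the recovered reads (log2 fold change -2.75, adjusted p = 0.00453), which called 1984 genes, beside 610 in the main fit. RN7SK also passed in limma without ORC1 IP 2 (-4.56, adjusted p = 0.000998). That fit left out the IP with the most 7SK and called 3018 genes. Across IPs, the library with the most 7SK was also the one with the most mitochondrial reads. Across inputs the order was the reverse: input 1 had the most mitochondrial reads (3.28%) and the least 7SK, and input 2 the fewest (1.49%) and the most 7SK. The part that mitochondrial reads have in the values was not tested.

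**Figure D1:**
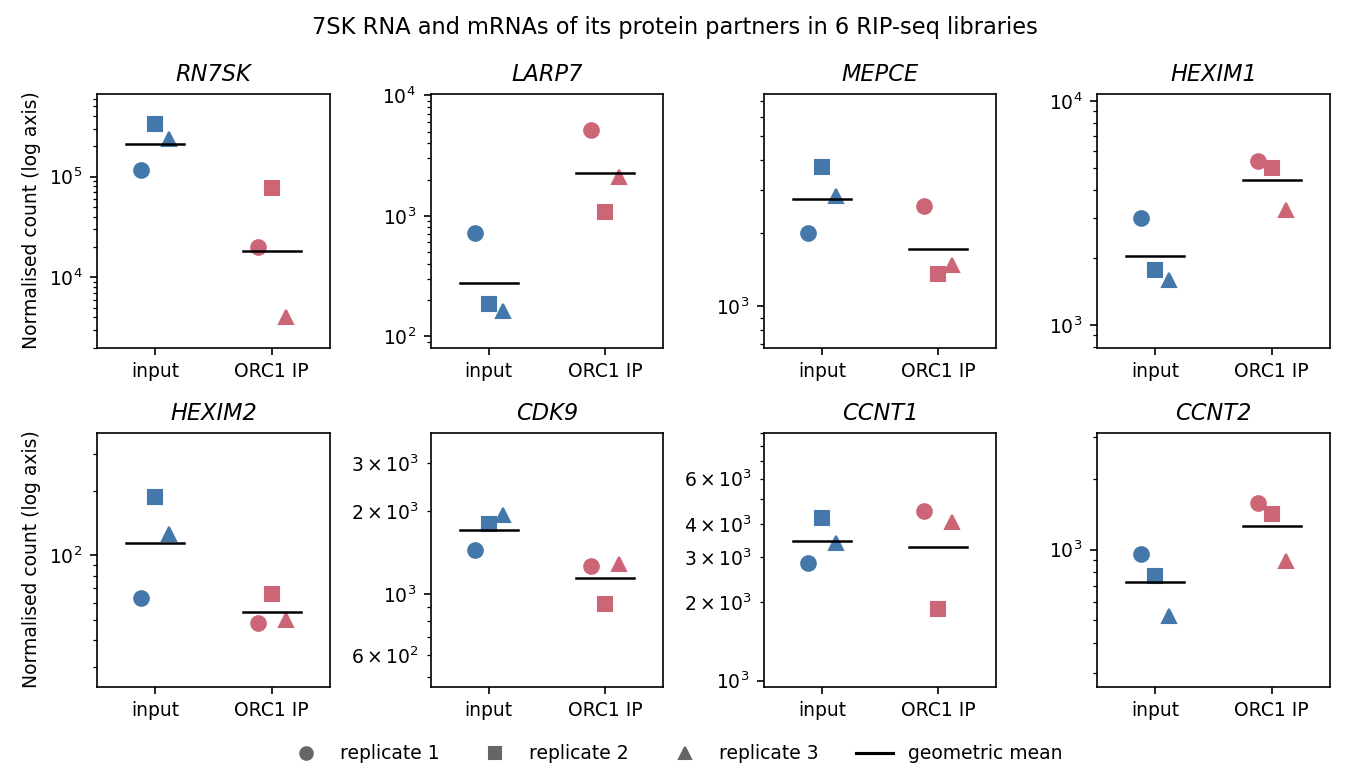
Normalised counts (log axis, a separate range in each panel) of the 8 genes in 3 input (blue) and 3 ORC1 IP (red) libraries, with marker shapes for the labelled replicates 1, 2 and 3 and black lines for geometric means. RN7SK lies between 116897 and 336588 in inputs and between 3986 and 78121 in IPs, while LARP7 lies at 160 to 719 and 1085 to 5189.

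As a share of all reads on genes, which needs no scaling between libraries, 7SK took 0.642% (95% Wilson interval 0.639% to 0.646%), 1.56% (1.55% to 1.57%) and 1.24% (1.23% to 1.24%) in inputs 1, 2 and 3. In ORC1 IPs 1, 2 and 3 it took 0.0667% (0.0657% to 0.0677%), 0.535% (0.533% to 0.538%) and 0.0149% (0.0145% to 0.0153%). These intervals cover counting error only and are far narrower than the distance between libraries. The mean share was 1.15% ± 0.465 in input and 0.206% ± 0.287 in IP (SD, n = 3), a difference of -0.941 percentage points and a 5.58-fold lower mean (exact permutation test, two-sided, p = 0.1, which 3 against 3 cannot go below). In such shares, fewer 7SK molecules brought down and more of other RNA brought down cannot be told apart. The mRNAs of the 7 partners summed to 0.0581% ± 0.00290 of reads in input and 0.0659% ± 0.0159 in IP (exact permutation test, p = 0.5, n = 3).

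Of the 8 genes, LARP7 was called higher in ORC1 IP at an adjusted p under 0.05 and 0 were called lower, where 2.28% of all tested genes were called higher and 1.42% lower. At an unadjusted p under 0.05, 4 of the 8 passed (limma), namely RN7SK, LARP7, HEXIM1 and HEXIM2, where 21.6% of all tested genes did so in either direction. DESeq2 on the recovered reads gave its call for RN7SK in addition to that for LARP7. Input and IP values did not overlap, with IPs higher, for LARP7 and HEXIM1, and with IPs lower for RN7SK and CDK9; over all tested genes such separation was found for 12.7% with IPs higher and for 13.5% with IPs lower. The median log2 fold change of the 7 partner mRNAs was -0.07, beside 0.01 over all tested genes.

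LARP7 protein binds the 3′ tail of 7SK and protects the RNA from decay. LARP7 mRNA had 719, 184 and 160 normalised counts in inputs 1, 2 and 3. Its values in the IPs with these numbers were 5189, 1085 and 2084. The lowest IP was thus above the highest input, and input 1 was 4.17 times the mean of the other two inputs. LARP7 rose by 3.03 ± 0.62 on the log2 scale, an 8.17-fold higher geometric mean (limma, adjusted p = 0.0247). Within labelled replicates 1, 2 and 3 the log2 ratio of IP to input was 2.85, 2.55 and 3.69. Since the groups do not overlap, any pairing would point up, so this adds nothing on direction. The call was lost without the intensity trend in limma (adjusted p = 0.0654) and without input 2 (0.0844), input 3 (0.197) or ORC1 IP 3 (0.0792). It stood without input 1 (0.0148), and its log2 fold change ranged from 2.44 to 3.72 over the 6 fits that left out a library. LARP7 (chr4:112637077-112657696, plus strand, 13 exons) shares 16.3% of its exonic bases with MIR302CHG on the opposite strand, a gene not analysed here.

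MEPCE puts the methyl cap on the 5′ end of 7SK and stays bound to the particle. MEPCE mRNA had 1999, 3746 and 2845 normalised counts in inputs and 2575, 1353 and 1481 in IPs 1, 2 and 3. The groups overlapped because IP 1 was above input 1, and the log2 ratios within replicates 1, 2 and 3 were 0.36, -1.47 and -0.94. The log2 fold change was -0.68 ± 0.42 (limma, adjusted p = 0.374). The mRNAs of the 2 proteins that stay bound to 7SK were thus not alike, with LARP7 called and MEPCE on the other side of 0 without passing the test; the difference between them was not tested. In GENCODE v44, MEPCE (chr7:100428322-100434126, plus strand) shares 61.3% of its exonic bases with a readthrough gene on the same strand. Whether the hg19 annotation used for counting held that gene is not known here, so any effect on the reads of MEPCE is uncertain.

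HEXIM1 and HEXIM2 are the inhibitors that hold P-TEFb on 7SK, and their mRNAs lay on opposite sides of 0. HEXIM1 had 3015, 1760 and 1586 normalised counts in inputs and 5401, 5003 and 3254 in ORC1 IPs. Every IP was above every input, although the gap between IP 3 and input 1 was small. The log2 fold change was 1.13 ± 0.43, a 2.19-fold higher geometric mean, with ratios within replicates of 0.84, 1.51 and 1.04, and it did not pass (limma, adjusted p = 0.152).
HEXIM2 was the least abundant of the 8, with 63.3, 189 and 126 normalised counts in inputs and 48.4, 66.2 and 49.9 in IPs. Its groups overlapped because input 1 was below IP 2. The log2 fold change was -1.07 ± 0.48 (limma, adjusted p = 0.220). HEXIM1 (chr17:45148475-45152099) and HEXIM2 (chr17:45160700-45170040) are neighbours on the plus strand, and the antisense gene HEXIM2-AS1 covers 14.3% of the exonic bases of the former and 28.2% of the latter. HEXIM2-AS1 itself had 9.50 to 16.4 normalised counts in inputs and 0 to 2.32 in IPs. A further antisense gene, ENSG00000267288, covers 51.1% of HEXIM2. The sources used here do not say whether counting used the strand, so the values of HEXIM2 in particular are uncertain.

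CDK9 is the kinase of P-TEFb, and cyclins T1 and T2, encoded by CCNT1 and CCNT2, are its alternative partners. CDK9 had 1443, 1795 and 1937 normalised counts in inputs and 1263, 923 and 1285 in IPs, so every IP was below every input. The distance was small beside the spread, with a log2 fold change of -0.58 ± 0.35 (limma, adjusted p = 0.366).
CCNT1 had 2832, 4239 and 3388 normalised counts in inputs and 4520, 1894 and 4085 in IPs. IP 2 was below all inputs, IP 1 above them and IP 3 among them, which left a log2 fold change of -0.07 ± 0.46 (limma, adjusted p = 0.947). Without IP 2 it was 0.32 and without input 2 it was 0.08, so CCNT1 had no stable direction.
CCNT2 had 961, 771 and 523 normalised counts in inputs and 1572, 1422 and 896 in IPs. The groups overlapped at IP 3. Within labelled replicates 1, 2 and 3 the log2 ratio of IP to input was nearly the same, at 0.71, 0.88 and 0.78. This likeness rests on the labelled pairing, which is in doubt for replicates 1 and 2. The log2 fold change of CCNT2 was 0.79 ± 0.38 (limma, adjusted p = 0.252). The longest transcripts of CDK9 (chr9:127785679-127790792), CCNT1 (chr12:48688458-48716998, minus strand) and CCNT2 (chr2:134918235-134959342) shared no 50-base stretch, on either strand, with transcripts of other genes. Over all annotated exons, CDK9 shares 91 bases with MIR3960 and 90 with MIR2861, and CCNT2 shares 150 with CCNT2-AS1. For the longest transcripts of the other 5 genes, between 13.2% (HEXIM1) and 79.4% (HEXIM2) of 50-base stretches were found in another gene's transcripts. Genes overlapping at the same place count here, and for MEPCE, HEXIM1 and HEXIM2 only 1, 1 and 2 other gene names matched.

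**Figure D2:**
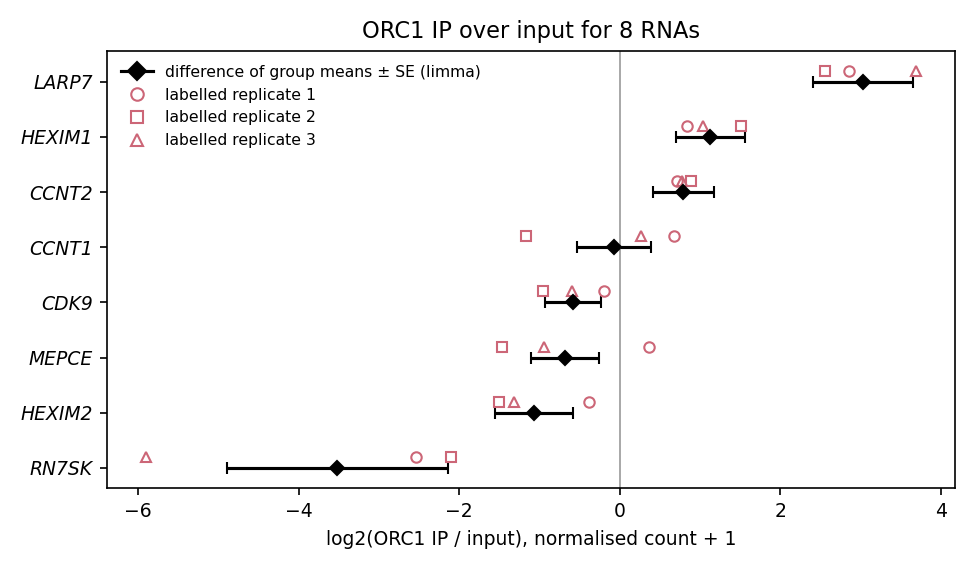
Log2 ratio of ORC1 IP over input (normalised count + 1) for the 8 genes, ordered from LARP7 to RN7SK. Diamonds with bars are the difference of group means ± SE from limma and open symbols the ratios within labelled replicates 1, 2 and 3; LARP7 at 3.03 and RN7SK at -3.52 mark the ends.

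In 8 of 8 genes, input 1 was the highest or the lowest of the inputs, and in 7 it lay on the side where the mean of the IPs was, with CCNT1 as the exception. The share of all tested genes with this trait was not counted, and input 1 stood apart beyond these genes. Its chi-square per degree of freedom was 114 against input 2 and 94.2 against input 3, beside 49.5 between inputs 2 and 3. Over all tested genes its log2 levels correlated more with each IP than those of the other inputs did (r 0.918, 0.941 and 0.943 for IPs 1, 2 and 3). Without that share, the counts cannot be read as a trait of the 8 genes. For RN7SK, the mean of inputs 2 and 3 was 2.46 times input 1. What sets input 1 apart was not tested.

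Ratios of 7SK to each partner mRNA were then taken within each library, which removes any scaling between libraries. There were 162, 1816 and 1476 counts of 7SK per count of LARP7 mRNA in inputs 1, 2 and 3. The IPs with these numbers held 3.88, 72.0 and 1.91. The geometric mean went from 758 to 8.11, a difference of -6.55 on the log2 scale or 93.5-fold (two-sided exact permutation test, p = 0.1, n = 3). All IPs were below all inputs for this pair.
The 7SK to HEXIM1 ratio had geometric means of 104 in input and 4.15 in IP, a log2 difference of -4.64. For CCNT2 these means were 289 and 14.6 (log2 difference -4.30), and for CCNT1 61.3 and 5.64 (-3.44). In ORC1 IP 3 the counts of 7SK and CCNT1 mRNA were about level, with a ratio of 0.976.
The ratio to MEPCE had geometric means of 76.0 and 10.7 (log2 difference -2.83). For HEXIM2 they were 1819 and 334 (-2.45). For CDK9 they were 123 and 16.1 (-2.93), and here alone the groups overlapped (exact permutation test, p = 0.2, n = 3). For the other 6 ratios the p was 0.1, the smallest that 3 against 3 allows, so this design could not take any of the 7 ratios past 0.05, with or without adjustment. All 7 share the same 7SK values and are not independent. The ratio to HEXIM2 was nearly constant over inputs, at 1818, 1770 and 1870 (SD of 0.0394 on the log2 scale), whereas in IPs it was 408, 1163 and 78.3.

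Per kilobase of the longest annotated transcript, 7SK had 696520 ± 332456 normalised counts in input and 102949 ± 117788 in IP (SD, n = 3), far above any partner mRNA in both. In inputs the order of levels after 7SK was MEPCE (1015 ± 310 per kb), CDK9 (695 ± 102), HEXIM1 (585 ± 215), CCNT1 (504 ± 103), LARP7 (111 ± 98.5), CCNT2 (109 ± 31.8) and HEXIM2 (82.6 ± 41.2). The ranges of mean ± SD of neighbours in this order overlapped, apart from the step from CCNT1 to LARP7. In ORC1 IPs the order was HEXIM1 (1256 ± 315), LARP7 (870 ± 668), MEPCE (639 ± 238), CCNT1 (506 ± 204), CDK9 (466 ± 81.7), CCNT2 (187 ± 51.3) and HEXIM2 (35.9 ± 6.46). LARP7 moved from rank 6 of the 8 to rank 3, and its SD in IPs reached both neighbours. The order among partner mRNAs rests on the length used: with the median transcript length, MEPCE was at rank 4 in inputs and CDK9 at rank 2. With that length LARP7 moved from rank 7 in inputs to rank 5 in IPs.

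Density of GAA was looked at with earlier results of these data known. The paper had reported tandem GAA repeats as enriched among the RNAs of this ORC1 RIP-seq. The values below thus describe a feature already found in these data and are no independent observation. The LARP7 stretch shown above was picked for its GAA triplets and adds nothing to them. Over its longest transcript, LARP7 held 37.8 GAA per kb, more than 96.7% of tested transcripts, whose median was 19.9. The other partner mRNAs were near or below that median: CCNT2 held 21.1 per kb, HEXIM1 21.0, CCNT1 20.7, HEXIM2 19.6, CDK9 18.5 and MEPCE 13.1. 7SK itself held 12.1 per kb over its 331 nt. In the coding sequence alone, LARP7 held 52.7 GAA per kb of 1746 nt and CDK9 17.0 per kb of 1116 nt.
Among the 7 partner mRNAs the order of GAA density followed that of the log2 fold change with a Spearman rho of 0.857, given as a description over genes that share all 6 libraries. GC content gave -0.786 and transcript length 0.643 over the same 7, so the features move together. With the other pathway mRNAs added, 59 in all, rho was 0.642 for GAA density, -0.322 for GC content and 0.450 for length. Over all 16062 tested genes with a transcript these were 0.307, -0.183 and 0.336. LARP7 was the only one of the 8 RNAs with 3 GAA triplets in tandem, which 12.9% of tested transcripts hold. The median log2 fold change was 0.59 for the 2068 genes with the tandem repeat and -0.06 for the 13994 without it.

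**Figure D3:**
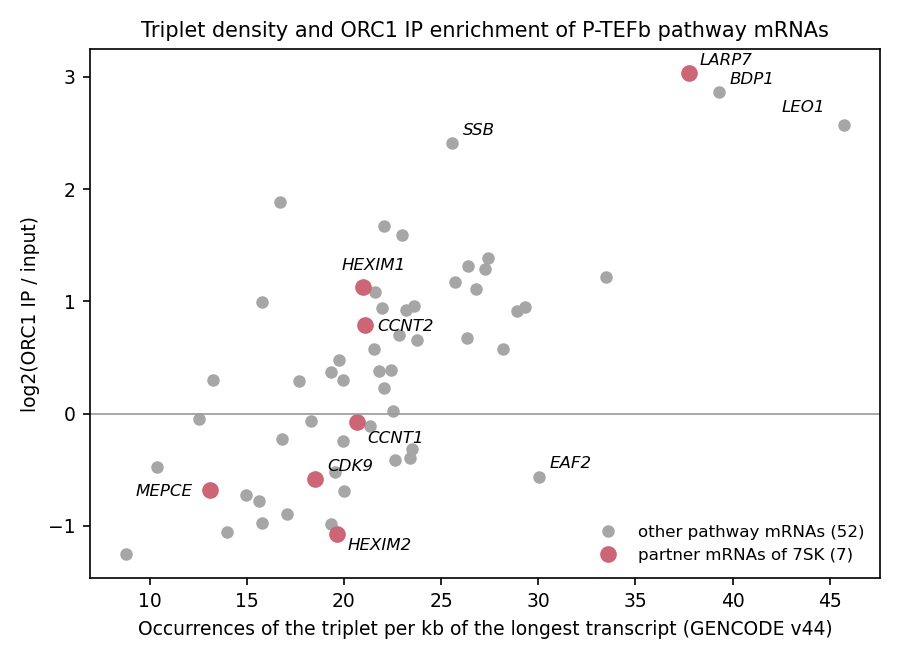
GAA triplets per kb of the longest transcript (x axis) against log2 of ORC1 IP over input (y axis) for the 7 partner mRNAs (red) and 52 other mRNAs of the P-TEFb pathway (grey). LARP7 lies at 37.8 per kb and 3.03, and EAF2, at 30.1 per kb and -0.56, is the densest of those below 0.

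The table lists 34 pseudogenes of 7SK, of which 6 passed the filter on low values. Of 7SK's 50-base stretches, 76.6% occur in transcripts of 14 other gene names, and the sources used here do not say how reads that match several places were counted, so reads may be divided between 7SK and these copies. Of the 6, 3 were called lower in ORC1 IP, where 1.42% of all tested genes were, and the median log2 fold change of the 6 was -3.23. RN7SKP203, RN7SKP227 and RN7SKP180 had means of 3.87, 6.19 and 5.14 in IP and passed the filter only through their inputs. The count and the median thus lean towards lower values through the filter.
RN7SKP255 had 60.1, 189 and 131 normalised counts in inputs and 6.91, 36.6 and 0.745 in IPs. Its 240 nt aligned to 7SK are 98.3% identical to it, and it fell by 3.84 on the log2 scale (limma, adjusted p = 0.0395). RN7SKP203, also 98.3% identical, had a log2 fold change of -3.54 (adjusted p = 0.0471), and RN7SKP9, 97.9% identical and inside UBAC2, one of -2.92 (adjusted p = 0.0496). These calls are near the threshold: each was lost without the intensity trend, with total count scaling and with edgeR on recovered reads, and each rests on at most 120 reads per library.
RN7SKP227, 88.5% identical, had a log2 fold change of -3.58 (adjusted p = 0.0548, and 0.0151 with the replicate block) and RN7SKP180 one of -2.34 (adjusted p = 0.104). RN7SKP173, 90.8% identical and inside ACTR5, was the exception with 21.1, 42.6 and 39.8 normalised counts in inputs and 96.7, 80.7 and 26.8 in IPs (log2 fold change 0.83 ± 0.57, adjusted p = 0.428). Reads on all pseudogenes amounted to 0.222%, 0.228% and 0.223% of those on 7SK in inputs 1, 2 and 3, and to 0.916%, 0.331% and 1.48% in ORC1 IPs. Without RN7SKP173 these were 0.204%, 0.215% and 0.206% in inputs and 0.435%, 0.228% and 0.804% in IPs.

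The pattern most like that of RN7SK over the 6 libraries, by the root mean square distance of centred log2 values, was that of RN7SKP255 (distance 0.188, Pearson r 0.999). RN7SKP203 (0.361), the histone gene HIST1H4J (0.414), RN7SKP227 (0.438) and RNU1-120P, a pseudogene of U1 RNA (0.452), came next. HIST1H4J had 195, 591 and 398 normalised counts in inputs and 16.1, 109 and 7.45 in IPs, which is the same order of libraries as for 7SK. The number of points is 6 libraries in each case.

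Other short RNAs made by RNA polymerase III lay on the same side as 7SK. Of 15 such RNAs listed, 10 were in the table and 8 passed the filter. All 8 were lower in ORC1 IP with no overlap of the groups, as were 13.5% of all tested genes. The test called 5 of them lower, where 1.42% of all tested genes were. RNY1 (mean 31.0 in input and 3.39 in IP) and VTRNA1-3 (33.9 and 3.45) passed the filter only through their inputs. Their direction was thus partly set by the filter. RN7SL3, a gene of the signal recognition particle RNA, had a log2 fold change of -6.77 (limma, adjusted p = 0.000122), RN7SL1 one of -6.91 (0.00113) and RN7SL2 one of -6.50 (0.00406).
RPPH1, the RNA of ribonuclease P, fell by 6.39 on the log2 scale (adjusted p = 0.00113). RNY1, a Y RNA, fell by 2.88 (adjusted p = 0.0486), a call that was lost under several of the other settings. RMRP, the RNA of ribonuclease MRP, had a log2 fold change of -4.31 ± 1.56 that did not pass (adjusted p = 0.131), as was the case for VTRNA1-3 at -3.28 (0.0535, and 0.0181 with the replicate block) and BCYRN1 at -2.36 (0.0623). The value of 7SK, -3.52, thus lay within the range of these RNAs, from -6.91 to -2.36.

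**Figure D4:**
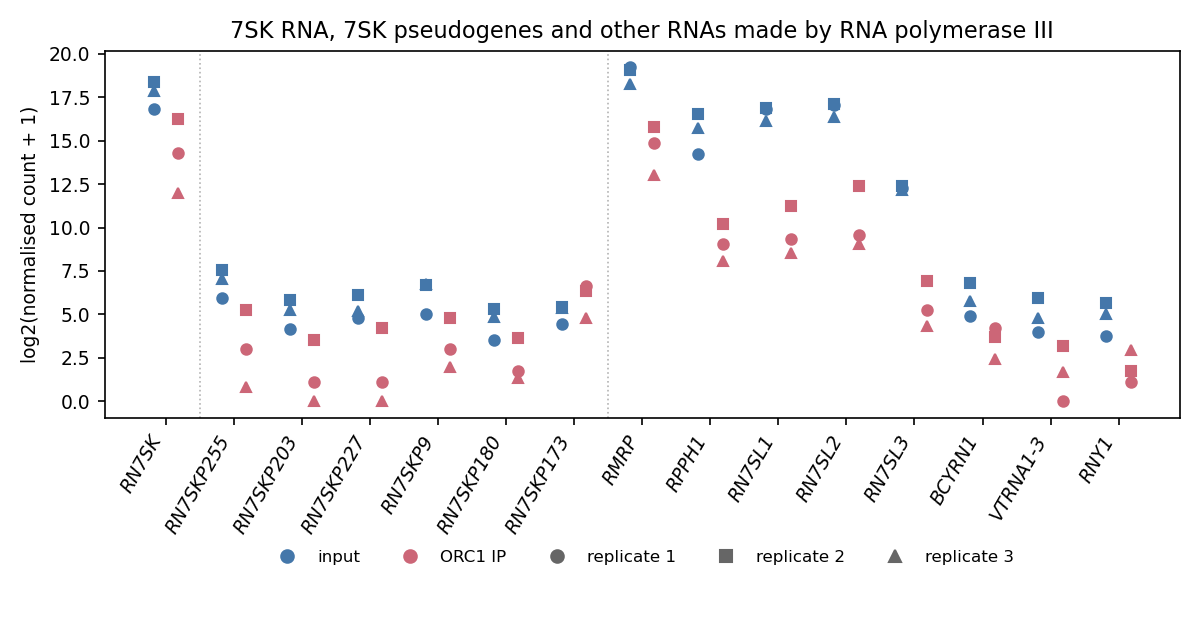
Log2(normalised count + 1) of RN7SK, the 6 pseudogenes of 7SK that passed the filter and 8 other RNAs made by RNA polymerase III, in inputs (blue) and ORC1 IPs (red), with marker shapes for labelled replicates. IPs lie below inputs for RN7SK and for all 8 other RNAs, and RN7SKP173 is the pseudogene whose IPs reach above its inputs.

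Beyond the partners of 7SK, 54 further genes that act with P-TEFb or make 7SK were listed by role, of which 53 were in the table and 52 were tested. In ORC1 IP 2 were called higher and 0 lower, a share of 3.85% called higher that is near the 2.28% of all tested genes. A log2 fold change above 0 was found for 33 of the 52 (63.5%), against 50.7% of all tested genes, and the median was 0.39. With the replicate number as a block, limma called 4 higher, among them SSB, LEO1 and BDP1, where 2.62% of all tested genes were called higher.
SSB, the La protein that first binds the 3′ tail of new 7SK, had 1134, 350 and 356 normalised counts in inputs and 5657, 1132 and 3336 in IPs. It rose by 2.41 ± 0.60 on the log2 scale (limma, adjusted p = 0.0472), although IP 2 was level with input 1 and the call was lost without input 2 (0.171), input 3 (0.288), IP 1 (0.0895) or IP 3 (0.130).
BDP1, a subunit of the factor that recruits RNA polymerase III, had 1831, 793 and 438 normalised counts in inputs and 8168, 4044 and 7443 in IPs, with no overlap. BDP1 rose by 2.86 ± 0.53 (limma, adjusted p = 0.0170), a call that was lost without input 2 (0.0702), input 3 (0.173) or ORC1 IP 3 (0.0696).

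By role, the 11 other proteins found with 7SK had a median of 0.30 in log2 fold change, from HMGA1 at -1.25 to SSB. Genes of P-TEFb recruitment and release (4) had a median of 0.21, with TRIM28 lowest at -0.48. The super elongation complex (8), which carries active P-TEFb, had a median of 0.61, from EAF2 at -0.56 to AFF1 at 1.08. The pausing factors DSIF and NELF (6), substrates of P-TEFb, had the one median below 0, -0.47, from SUPT4H1 at -1.05 (limma, adjusted p = 0.0964) to SUPT5H at 0.58.
The other kinases of the polymerase tail with their cyclins (6) had a median of 1.14, from CDK7 at -0.24 to CCNK at 1.67 (adjusted p = 0.113). The PAF complex with SUPT6H (7), which travels with elongating polymerase, had a median of 1.29, from WDR61 at -0.89 to LEO1. LEO1 had 809, 435 and 232 normalised counts in inputs and 9780, 738 and 2393 in IPs, and its log2 fold change of 2.57 ± 0.75 did not pass (adjusted p = 0.0733), with IP 2 below input 1. Genes that transcribe 7SK (10) had a median of 0.30, from SNAPC2 at -0.97 to BDP1. No test between these role groups was made. In GAA density, LEO1 with 45.7 per kb and BDP1 with 39.3 were the only genes of the pathway above LARP7, and SSB held 25.6.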

How the data were processed

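RNA from input and anti-ORC1 precipitates of HCT116 nuclei (3 libraries each) was ribosome-depleted and sequenced from a stranded total RNA kit. Per the methods and the submitters' processing notes, the authors used Trimmomatic for trimming, STAR for alignment to hg19, featureCounts for counts per Ensembl gene and DESeq2 for the comparison. The deposited signal per library is a gene count divided by 1 size factor. The authors' deposited log2 fold changes with standard errors, Wald score and p-value columns hold their own comparison and were not used. Whole reads were recovered for 100% of values in each library (tolerance 0.001).

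Here log2(normalised count + 1) of 16513 genes with a mean of at least 10 was tested with limma 3.58.1 (R 4.3.3, intensity trend, no block) and Benjamini-Hochberg adjustment at 0.05. Such fold changes understate those of low genes. edgeR 4.0.16 and DESeq2 1.42.0 on the recovered reads, other pseudocounts, filters and scalings, a replicate block and leaving out each library were alternatives. The fits were tested on simulated data. For shares and ratios, the exact permutation test was used, two-sided (scipy 1.17.1). Wilson intervals are at 95%. Transcript lengths, sequences and overlaps came from GENCODE v44, the longest transcript per gene, for 16062 (97.3%) of the tested genes. Identity to 7SK came from local alignment (Biopython 1.88).

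The members and lists were chosen with earlier results of these data known. Named were all 8 members, pathway genes called or at either end of their role group, 7SK pseudogenes and polymerase III RNAs passing the filter, and the 5 genes most like RN7SK. A pathway gene that this rule would name is not reported here. The epithelial, blood and fibroblast markers, and HEXIM2-AS1, are named in addition. The pairing of inputs and IPs comes from the labels, which number both by RIP replicate. An input and an IP of the same number deviated from the means of their groups with correlations of -0.322, -0.240 and 0.215 for replicates 1, 2 and 3, so the numbers of replicates 1 and 2 are in doubt, and ratios within replicates rest on them. No libraries of a group were repeats of each other (chi-square per degree of freedom 49.5 to 676).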

Additional observations from a re-analysis of the deposited data

How the results depend on the processing

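Of all 16513 genes, 610 were called (376 higher, 234 lower). The count was 183 with total count scaling (87 higher, 96 lower), 239 without the limma trend and 1984 with DESeq2, and 29 to 3018 when 1 library was left out, lowest without input 3 and highest without ORC1 IP 2. With total count scaling the all-gene median of the log2 fold change was -0.19 in place of 0.01, and the share of calls that were higher went from 61.6% to 47.5%. RN7SK ran from -3.73 to -2.71 over the 12 alternatives that kept all libraries and from -4.56 to -2.41 over those that left 1 out, and passed with DESeq2 (-2.75, adjusted p = 0.00453) and without ORC1 IP 2 (-4.56, 0.000998). The count of partner mRNAs called, 1, was 0 without the limma trend and 0 to 1 when 1 library was left out. The pathway count, 2, was 1 with a mean of at least 50, with total count scaling and without the trend, 4 with edgeR and 12 with DESeq2, and 0 to 22 when 1 library was left out (22 without ORC1 IP 2). With the replicate block, limma gave 624 calls, RN7SK an adjusted p of 0.402 and LARP7 one of 0.00136, and the pathway count was 4; edgeR with the block gave 610 calls and 0.433 for RN7SK. The block changed no other count here by over 1.5 times. Pairing the ratios and the share by replicate number left p = 0.25 (exact sign changes, n = 3), the smallest possible. Leaving out 1 library, the difference in 7SK share ran from -1.19 to -0.735 points and the log2 difference in ratio from -8.12 to -5.50 (LARP7), -5.60 to -3.76 (HEXIM1), -5.26 to -3.45 (CCNT2), -4.88 to -2.18 (CCNT1), -4.13 to -1.75 (CDK9), -4.05 to -1.84 (MEPCE) and -3.35 to -1.40 (HEXIM2). Signs turned for CCNT1 without input 2 (0.08) or ORC1 IP 2 (0.32, range over left-out libraries -0.31 to 0.32), SUPT5H without ORC1 IP 1 (-0.17, range -0.17 to 1.26) and TRIM28 without ORC1 IP 2 (0.26, range -0.86 to 0.26), none of which passed the test. The causes were not tested. With 3 libraries a group, 1 input or IP can decide a call, and depth limits the pseudogenes, which had at most 139 reads in a library.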
